A study of Homo sapiens with 5 samples.

Results

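The comparison described here set MDA-MB-468 cells treated with the acetyl-CoA carboxylase (ACC) inhibitor PF0517515 for 6 h against untreated cells of the same line at 0 h. It rested on 1 single-cell RNA library a side. A barcode counted as a cell when it had 1000 or more genes detected and no more than 20% of its unique molecular identifiers (UMIs, counted molecules) came from mitochondrially encoded genes, and 6711 of the 15095 such cells in the series belonged to the comparison. The untreated library held 3705 of them and the treated library 3006. MDA-MB-468 is an established human triple-negative breast cancer line with many copies of the EGFR gene, and the study's title names ER stress and combination with other anti-cancer therapies as its subjects. The other 3 libraries were untreated cells at 72 h, cells given PF0517515 for 72 h, and cells that recovered after 72 h of the compound. The labels used here give no dose, vehicle or plating time. No untreated library taken at 6 h was analysed here, so 6 h of compound and 6 h of further culture or handling cannot be told apart in any value below, and with 1 library per group there was no test between groups.

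ACC adds a carboxyl group to acetyl-CoA and makes malonyl-CoA, the building unit of new fatty acids and the brake on fatty acid entry into mitochondria. Its forms are encoded by ACACA and ACACB. Cells sense shortage and damage partly through kinases that phosphorylate the translation factor eIF2alpha, among them PERK in the ER and GCN2 for amino acids. This slows most protein synthesis while favouring translation of the transcription factor ATF4, whose targets include DDIT3 (CHOP), CHAC1, TRIB3, amino acid transporters and tRNA synthetases. The other arms of ER stress, through ATF6 and through IRE1 with XBP1, raise ER chaperones such as HSPA5 (BiP), whereas the cytosolic heat shock genes are driven by HSF1.

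Kept cells held a median of 28980 UMIs and 5895 genes at 0 h, and 33712 UMIs and 6611 genes at 6 h. The summed library totals were 114350566 and 106673213 UMIs, and the median mitochondrial share was 5.63% and 6.06%. The libraries shared 7 cell barcodes. Levels are given as UMIs of a gene per 1000000 UMIs of its library (CPM), and an interval after a fold is an exact 95% interval that covers counting error only, not the spread between cultures. The epithelial markers of the line were abundant in both libraries (EGFR, KRT18, KRT19, EPCAM), ESR1 and ERBB2 were at or below 12.5 CPM, and PGR had 0 and 4 UMIs. No member of the immune, fibroblast, endothelial or adipocyte lists reached 10 CPM in either library. Their summed levels at 0 h and 6 h were 3.04 and 3.25 CPM for immune markers, 2.82 and 2.94 for fibroblast, 2.75 and 2.08 for endothelial and 0.140 and 0.197 for adipocyte markers.

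Of 9075 genes with at least 10 CPM in either library, 181 (1.99%) were more than 2-fold higher at 6 h and 12 (0.132%) more than 2-fold lower. At 1.5-fold these were 1000 genes (11.0%) and 80 (0.882%). The median log2 ratio over all genes was 0.10, and 60.2% of genes lay above 0. Of the 9075 genes, 552 reached the minimum only at 6 h and 139 only at 0 h. Among genes of at least 20 CPM the highest ratios were those of STC2, SESN2, HIF1A-AS3, SLC7A11, SAMD4A, DDIT3, NDRG1, DMGDH, DDIT4, PCED1B, GRB10, KCNQ5, LYST, GCLC and HDAC9. The lowest were those of TNFSF10, HSPA1A, LY6D, CD14, HIST1H1A, HSPA8, SPDEF, SYT12, THEM6, FOXI1, ID3, TOE1, CITED4, HIST1H3D and FAM111B. The high end thus held 5 members of the PERK-ATF4 stress list described below (STC2, SESN2, SLC7A11, DDIT3 and DDIT4), and the low end the cytosolic chaperones HSPA1A and HSPA8.

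**Figure D1:**
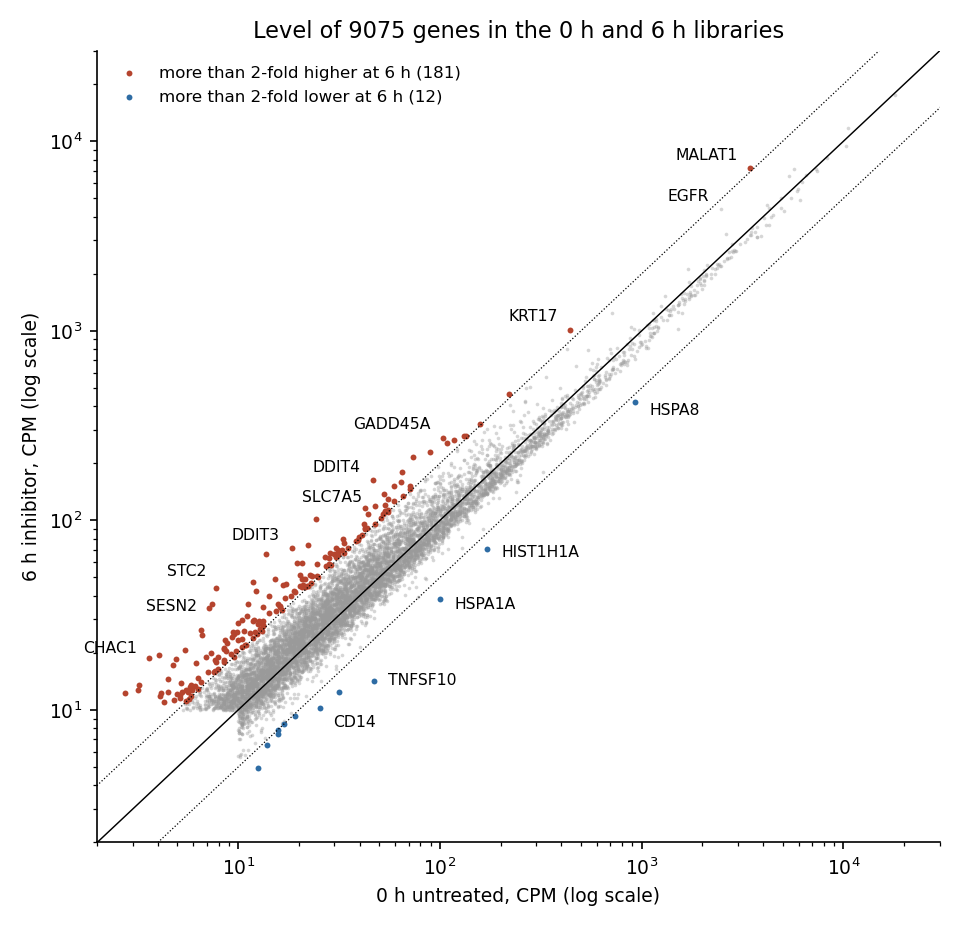
Level of each of the 9075 genes compared, as CPM on log axes, at 0 h (horizontal) and 6 h (vertical), 1 library an axis; the dotted lines mark 2-fold. More points lie above the upper line (181, red) than below the lower one (12, blue), and HSPA8 is the most abundant gene below it.

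A broad shift set the frame for every gene below. When the 8752 protein-coding genes were ordered by genomic span, the median log2 ratio climbed with each step, from -0.20 in the shortest decile to 0.48 in the longest. Genes more than 1.5-fold higher made up 33.6% of the longest decile and 3.42% of the shortest, and 50 of the 141 protein-coding genes more than 2-fold higher belonged to the longest decile. The median span of those 141 genes was 117598 bp, against 37404 bp for all. The nuclear-retained noncoding RNA MALAT1 stood at 3454 CPM at 0 h and 7215 CPM at 6 h, and NEAT1, the scaffold of paraspeckles, at 427 and 803 CPM. Against the 72 h untreated library, where MALAT1 was at 8571 CPM, the medians ran only from -0.057 to 0.20, and 72 h untreated over 0 h untreated ran from -0.097 to 0.29. The step with gene span was therefore also present between the 2 untreated libraries, at a smaller size.

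The 0 h library held a set of cells with few UMIs of MALAT1 and of long genes. With each cell thinned to 5000 UMIs, 505 of 3700 cells at 0 h held no MALAT1 UMI (13.6%, exact 95% interval 12.6 to 14.8%), against 19 of 2996 at 6 h (0.634%, 0.382 to 0.989%), 1.42% at 72 h untreated and 3.27% at 72 h with inhibitor. These 505 cells took a median 1.87% of their UMIs from the longest decile of genes, compared with 4.48% in the other cells of that library. They had 4895 detected genes and 27623 UMIs (medians, before thinning) against 6032 and 29118. Their mean thinned EGFR count was 4.90 against 13.3, whereas the PERK-ATF4 list described below had 6.51 against 6.50. Over all kept cells, the per-cell share from the longest decile had a median of 4.16% at 0 h and 6.07% at 6 h, and it went up with MALAT1 CPM from cell to cell (Spearman's rho 0.87 over 3705 cells at 0 h and 0.63 over 3006 at 6 h; both are shares of one cell's UMIs).

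Ratios were therefore also taken between cells alike in this respect. One window kept cells with 4.16 to 6.07% of UMIs from the longest decile (1175 cells at 0 h, 1095 at 6 h), and another kept cells with 1729 to 6774 CPM of MALAT1 (1228 and 1170 cells). Both windows were chosen after seeing the data. Each ran from the median of the 0 h cells to the median of the 6 h cells. The 0 h cells kept thus lay at or above their library's median, and the 6 h cells at or below theirs. In the first, the medians of the span deciles lay between -0.067 and -0.0021, and in the second between -0.070 and 0.024. Of 9027 genes, 45 (0.499%) were more than 2-fold higher and 26 (0.288%) more than 2-fold lower, and at 1.5-fold these were 199 (2.20%) and 200 genes (2.22%). In the MALAT1 window 52 of 9089 genes (0.572%) were more than 2-fold higher and 25 (0.275%) lower, and at 1.5-fold 223 (2.45%) and 170 (1.87%). The first window equalises the long-gene share by its construction, so it sets long genes near 0 and says nothing independent of them. The MALAT1 window does not use the counts of long protein-coding genes, but MALAT1 level and long-gene share went together from cell to cell. It is therefore not independent of them either. Medians of gene groups in the windows are given in this order beside those in all cells.

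**Figure D2:**
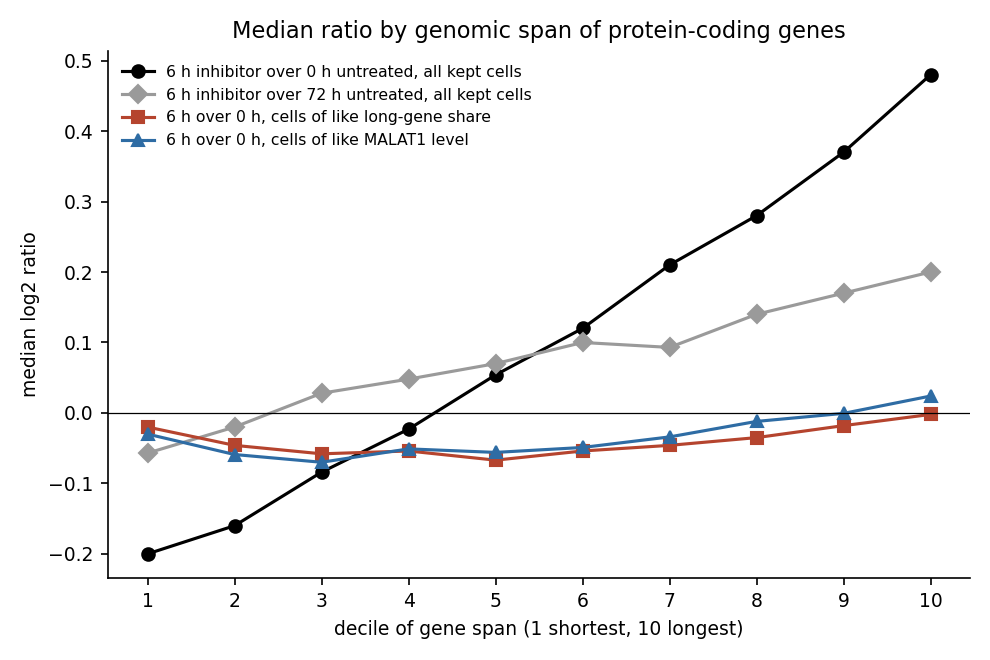
Median log2 ratio of protein-coding genes in deciles of genomic span (1 shortest, 10 longest), for 6 h over 0 h in all kept cells (black), in cells of like long-gene share (red) and of like MALAT1 level (blue), and for 6 h over 72 h untreated (grey). The black line runs from -0.20 to 0.48, and the red and blue lines stay within 0.07 of 0.

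Genes of the PERK-ATF4 stress list were higher at 6 h almost throughout. The name is only a label, since ATF4 lies downstream of several eIF2alpha kinases, PERK and GCN2 among them. Whether any of these kinases was active was not tested. Of 35 genes on the list, 29 reached the minimum level, 10 of them through the 6 h library alone. Of these 29, 28 were higher and 1 lower, 12 were more than 2-fold and 20 more than 1.5-fold higher, and the median log2 ratio was 0.87. Their median span was 14818 bp, shorter than that of all genes. Without a minimum level the median was 0.95, and within the windows it was 0.77 (long-gene share) and 0.79 (MALAT1). The median for all genes was 0.10 in all cells and -0.043 and -0.037 in the windows.

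STC2 (ENSG00000113739, chr5:173314713-173329503, minus strand, GRCh38 with GENCODE 29 annotation) encodes the secreted glycoprotein stanniocalcin-2. It stood at 7.80 CPM at 0 h, 43.8 at 6 h, 19.5 at 72 h untreated, 29 at 72 h with inhibitor and 31.2 in recovery. The 6 h library was the highest of the 5 and 5.62-fold above 0 h (5.23 to 6.04). CHAC1 (ENSG00000128965, chr15:40952962-40956519, plus strand) encodes an enzyme that degrades glutathione. CHAC1 was also highest at 6 h, with 3.63, 18.9, 9.76, 4.24 and 9.27 CPM in the same order of libraries, 5.22-fold higher at 6 h than at 0 h (4.69 to 5.81). Unlike STC2, its level at 72 h with inhibitor lay below that at 72 h untreated. SESN2 (ENSG00000130766, chr1:28259527-28282491, plus strand), a sestrin that restrains the mTORC1 growth pathway, had 7.19, 34.3, 17.3, 14.2 and 41.8 CPM and was 4.77-fold higher (4.42 to 5.15), with only recovery above it.

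DDIT3 (ENSG00000175197, chr12:57516588-57521737, minus strand) encodes CHOP, a transcription factor linked to death under prolonged ER stress. Its level was 18.5 CPM at 0 h, 71.6 at 6 h, 59.7 at 72 h untreated, 213 at 72 h with inhibitor and 435 in recovery. The 6 h value was 3.87-fold above 0 h (3.68 to 4.06) and lay near the 72 h untreated value, well below the later libraries that had seen the compound. DDIT4, another mTORC1 restraint, behaved alike, with 46.6, 163, 199.7, 328 and 643 CPM. TRIB3, a pseudokinase that dampens ATF4 output, had 70.8 and 151 CPM at 0 h and 6 h (2.14-fold, 2.08 to 2.20). SLC7A11, the cystine importer, had 6.54 and 26.4 CPM (4.04-fold, 3.72 to 4.38), and CTH, which makes cysteine, 3.23 and 13.5 CPM (4.17-fold, 3.72 to 4.69). PPP1R15A, the phosphatase subunit that reverses eIF2alpha phosphorylation, had 26.8 and 63.8 CPM (2.38-fold).

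ATF4 mRNA was at 266 and 273 CPM (1.03-fold, 1.01 to 1.04), a gene whose main control is translational, and CEBPB at 189 and 193 CPM. ATF5 was the one lower member (1.39-fold lower, 14.3 CPM at 6 h). ATF3, an early stress factor, was at 24.0 and 46.3 CPM (1.93-fold higher). In cells of like long-gene share STC2 was 5.27-fold higher (4.65 to 5.99), CHAC1 5.79-fold (4.78 to 7.07), DDIT3 4.55-fold (4.18 to 4.97) and SESN2 3.47-fold (3.07 to 3.94), so these 4 stayed more than 3-fold apart there.

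The choice of untreated library mattered for this group. The 72 h untreated library was itself above 0 h for 25 of 28 compared members, with a median log2 ratio of 0.72 (0.66 and 0.58 in the windows of like cells). Set against 72 h untreated, 22 of 30 members were higher at 6 h and the median was 0.25. At 2-fold, 184 of 9453 genes (1.95%) were higher and 381 (4.03%) lower in that comparison, and at 1.5-fold 809 (8.56%) and 994 (10.5%). STC2, SESN2 and CHAC1 were higher at 6 h than at 72 h untreated by log2 ratios of 1.17, 0.99 and 0.96, DDIT3 by 0.26, and DDIT4 was lower (-0.29). The 2 comparisons share the 6 h library.

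**Figure D3:**
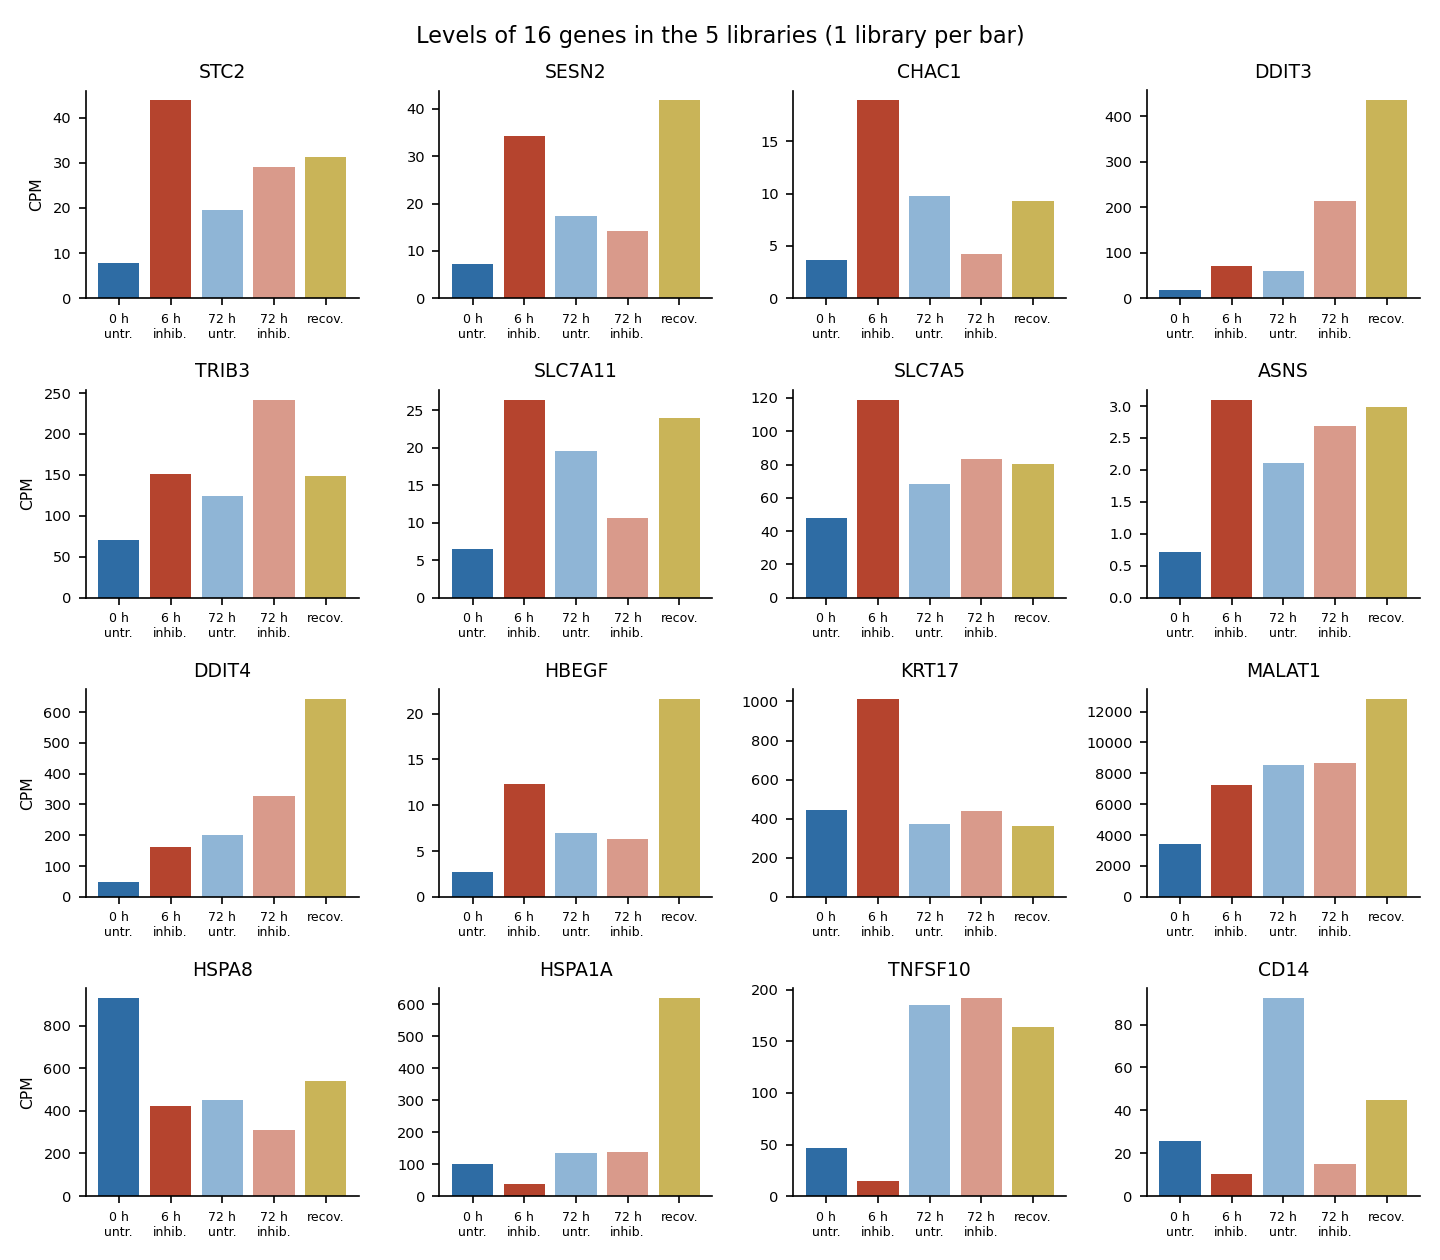
Levels (CPM) of 16 genes in the 5 libraries, each bar 1 library without an error bar, in the order 0 h untreated, 6 h inhibitor, 72 h untreated, 72 h inhibitor and recovery; every axis starts at 0 and has its own scale. STC2, CHAC1, SLC7A5, KRT17 and ASNS are highest at 6 h, DDIT3 and DDIT4 are highest in recovery, and TNFSF10 is lowest at 6 h.

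Genes that supply amino acids stood higher at 6 h beside the stress targets. Their lists overlap with the stress list, which also holds the transporter SLC7A11 and the enzymes CTH and GPT2. Of 12 amino acid transporters compared (2 of them above the minimum only at 6 h), 11 were higher and 1 lower, with a median log2 ratio of 0.77 in all cells and 0.65 and 0.70 in the windows. SLC7A5, the light chain of the LAT1 exchanger for large neutral amino acids, had 47.7 CPM at 0 h and 119 at 6 h, against 68.2, 83.3 and 80.6 CPM at 72 h untreated, 72 h with inhibitor and recovery. It was 2.49-fold higher (2.42 to 2.58) and highest at 6 h of all 5 libraries. Its partner SLC3A2 had 190.1 and 288 CPM (1.51-fold), the arginine and lysine carrier SLC7A1 30.5 and 64.0 CPM (2.09-fold), and SLC38A2 47.3 and 91.9 CPM (1.95-fold). The glutamine carrier SLC1A5 was the lower one, at 78.2 and 70.1 CPM (1.11-fold). The 72 h untreated library was itself above 0 h for all 11 transporters compared, with a median log2 ratio of 0.32. Against 72 h untreated, 8 of 12 transporters were higher at 6 h and 4 lower, with a median of 0.32.

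Of 14 enzymes of serine, glycine, one-carbon and asparagine synthesis compared, 13 were higher and 1 lower (median log2 ratio 0.33, and 0.35 in both windows). Of the 14, 2 reached the minimum only at 6 h. CTH, named above, had the highest ratio. Of the mitochondrial folate enzymes ALDH1L2 was at 9.85 and 25.9 CPM (2.63-fold), MTHFD1L at 65.6 and 135 CPM (2.06-fold), MTHFD2 at 104 and 178 CPM (1.71-fold) and SHMT2 at 46.2 and 48.0 CPM (1.04-fold). PSAT1 of serine synthesis was at 77.6 and 139 CPM (1.79-fold). PHGDH, which commits carbon to serine, was at 305 and 344 CPM (1.13-fold), and the cytosolic folate enzymes SHMT1 and MTHFD1 were within 1.01-fold of 0 h. ASNS, the asparagine synthetase and a classical ATF4 target, was at 0.708 and 3.10 CPM, too low for the minimum (4.38-fold, 3.43 to 5.66). Against 72 h untreated this list had a median of -0.020, with 7 genes higher and 7 lower.

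Among 20 cytosolic tRNA synthetases, which charge tRNAs with amino acids, 14 were higher and 6 lower at 6 h. GARS was at 150.2 and 253 CPM (1.68-fold), YARS at 84.1 and 138 (1.65-fold), CARS at 47.2 and 75 and IARS at 103 and 164 CPM (both 1.59-fold). FARSA was lowest in ratio, at 102 and 77.4 CPM (1.31-fold lower). The list's median log2 ratio was 0.33 in all cells and 0.11 and 0.093 in the windows, where GARS still had 0.61 and CARS 0.55 in the first.

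Promoters of these genes were read for the C/EBP-ATF response element (CARE), the composite site that ATF4 binds with C/EBP partners, as the letters TGATGNAA on either strand. The windows were the RefSeq promoters of GRCh38.p14, 250 bases before to 50 after each start, 300 bases in all. Of 27305 promoters 3.67% held the letters, and of 7488 belonging to genes compared 1.58%. They were found in 6 of 16 tRNA synthetase promoters (37.5%), 4 of 11 amino acid transporters (36.4%), 2 of 9 enzymes of serine and related synthesis (22.2%) and 3 of 23 PERK-ATF4 list genes (13.0%). The 6 synthetases with the letters (AARS, CARS, IARS, MARS, NARS, TARS) were all higher at 6 h, with log2 ratios of 0.29 to 0.67 and a median of 0.51. The 10 without them were 5 higher and 5 lower, with a median of -0.0043. The 4 transporters with them had log2 ratios of 0.25 to 1.07, and the 7 without them were 6 higher and 1 lower, with a median of 0.95. Of 20 PERK-ATF4 list genes without them 19 were higher (median 0.79). Of the 135 genes more than 2-fold higher that had a promoter in the table, 5 held the letters (3.70%). The stretches below show the letters in place for members of each group, in capitals, 5′ to 3′ along the gene's strand. They are CHAC1 at chr15:40953232-40953299 (plus strand), ATF3 at chr1:212565186-212565253 (plus), SLC7A1 at chr13:29595664-29595691 (minus), SLC3A2 at chr11:62881726-62881748 (plus), MTHFD1L at chr6:150866327-150866394 (plus), and the synthetases IARS1 at chr9:92293678-92293740, CARS1 at chr11:3057404-3057455 and AARS1 at chr16:70289656-70289723 (all minus; RefSeq's names for IARS, CARS and AARS).
CHAC1: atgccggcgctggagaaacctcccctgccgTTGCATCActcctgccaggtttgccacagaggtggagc
ATF3: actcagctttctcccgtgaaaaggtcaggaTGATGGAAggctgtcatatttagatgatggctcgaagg
SLC7A1: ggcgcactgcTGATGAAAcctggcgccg
SLC3A2: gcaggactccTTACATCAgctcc
MTHFD1L: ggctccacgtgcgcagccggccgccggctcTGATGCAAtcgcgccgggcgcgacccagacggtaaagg
IARS1: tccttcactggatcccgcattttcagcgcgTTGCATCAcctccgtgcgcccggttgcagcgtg
CARS1: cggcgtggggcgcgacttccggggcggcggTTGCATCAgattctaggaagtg
AARS1: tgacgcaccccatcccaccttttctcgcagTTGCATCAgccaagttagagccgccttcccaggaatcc

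In 5 of the 8 stretches (CHAC1, SLC3A2, IARS1, CARS1 and AARS1) the letters read as the reverse complement, and in CHAC1, IARS1, CARS1 and AARS1 they spell the same 8 bases. The first base of the match lay 209 bases before the start in CHAC1, 187 before it in AARS1, 13 before it in IARS1 and 2 before it in CARS1. RefSeq places the CHAC1 start inside the GENCODE 29 span of the gene, so its stretch lies within that span. A match is a description of the sequence and not a measured binding site.

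ER chaperones and the genes of ER-associated degradation did not stand higher as a group. Of 28 compared, 11 were higher and 17 lower, with a median log2 ratio of -0.069 (-0.14 and -0.17 in the windows). HSPA5 (ENSG00000044574, chr9:125234853-125241330, minus strand), the main ER chaperone BiP, had 74.8 CPM at 0 h and 75.4 at 6 h (1.01-fold, 0.977 to 1.04), then 129.6 at 72 h untreated, 340.4 at 72 h with inhibitor and 838 in recovery. The 0 h and 6 h values of HSPA5 did not differ beyond counting error, and both were the lowest of the series. The calcium-binding chaperone CALR was at 333 and 269 CPM (1.24-fold lower), SDF2L1 1.37-fold lower (123 CPM at 0 h) and DERL2, a channel component for degradation, at 43.3 and 30.8 CPM (1.40-fold lower).

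The 4 highest ratios of this list were those of ERN1, HERPUD1, EIF2AK3 and XBP1, and ERN1 reached the minimum only at 6 h. ERN1, which encodes IRE1, had 7.14 and 13.7 CPM (1.92-fold), EIF2AK3, which encodes PERK, 10.2 and 17.0 (1.67-fold), XBP1 82.5 and 127 (1.53-fold) and HERPUD1, a degradation factor, 41.3 and 70.4 (1.70-fold). In the windows of long-gene share and of MALAT1, ERN1 had log2 ratios of 0.65 and 0.45, HERPUD1 of 0.88 and 0.78, XBP1 of 0.71 and 0.67, and EIF2AK3 of 0.21 and 0.11, against 0.74 for EIF2AK3 in all cells. The gene-level counts do not separate spliced from unspliced XBP1. All 4 were higher at 72 h untreated than at 0 h too, and HERPUD1, XBP1 and EIF2AK3 were lower at 6 h than at 72 h untreated (log2 ratios -0.55, -0.58 and -0.62). Against 72 h untreated the list had a median of -0.32.

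Genes of the targeted pathway were little separated. ACACA (ENSG00000278540, chr17:37084988-37406818, minus strand), which encodes the cytosolic ACC, was at 43.2 CPM at 0 h, 61.5 at 6 h, 57.7 at 72 h untreated and 32.9 and 33.0 at 72 h with inhibitor and in recovery. It was 1.42-fold higher at 6 h (1.37 to 1.48). In cells of like long-gene share, whose choice counts ACACA among the long genes, it had 52.6 and 50.6 CPM and a log2 ratio of -0.06, and in cells of like MALAT1 level one of 0.06. ACACB, the mitochondrial form, was below the minimum at 4.63 and 6.03 CPM. The mRNA level does not report the activity of an inhibited enzyme. FASN, which builds palmitate from malonyl-CoA, was at 77.5 and 63.4 CPM (1.22-fold lower, 1.18 to 1.26). Of 17 fatty acid synthesis genes 10 were higher and 7 lower (median 0.021), and this sign turned under median-of-ratios and TMM scaling and within the windows (-0.13 in both).

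Of 24 genes of cholesterol synthesis and uptake, 14 were higher and 10 lower at 6 h. The median was 0.10, equal to that of all genes, and -0.060 in both windows. Of the 24, 1 reached the minimum only at 0 h. SREBF2, the master regulator of this pathway, was at 58.5 and 97.6 CPM (1.67-fold), with a log2 ratio of 0.20 in cells of like long-gene share. The enzyme genes HMGCS1 (40.5 and 51.2 CPM) and INSIG1, a sterol-regulated brake (17.8 and 20.6 CPM), were 1.26-fold and 1.16-fold higher. In the windows HMGCS1 turned to the other sign (log2 ratios -0.19 and -0.06), and INSIG1 had 0.06 and 0.10. At 72 h untreated they were at 20.7 and 7.70 CPM, so both early libraries lay above the later untreated one. Of 11 lipid droplet and PPAR-type genes 5 were higher and 6 lower (median -0.018, and -0.0057 and 0.023 in the windows). LPIN1, a phosphatidate phosphatase, was at 12.2 and 20.3 CPM (1.67-fold) and CPT1A, the mitochondrial fatty acid gate that malonyl-CoA inhibits, at 41.9 and 59.8 (1.43-fold, log2 ratio 0.11 in the first window).

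Genes of the heat shock list were mostly lower at 6 h. The list is mainly of cytosolic chaperones, but it also holds the mitochondrial chaperone genes HSPD1 and HSPE1 and the factor HSF1. Of 19 compared (1 of them above the minimum only at 0 h), 14 were lower and 5 higher, with a median log2 ratio of -0.24 (-0.26 and -0.27 in the windows). HSPA8 (ENSG00000109971, chr11:123057489-123063230, minus strand), the constitutive Hsc70 chaperone, was at 929.6 CPM at 0 h, 421 at 6 h, 453 at 72 h untreated, 311 at 72 h with inhibitor and 541 in recovery. The 0 h library was the highest and the other 4 lay within a narrower range. The ratio was 2.21-fold lower at 6 h (2.19 to 2.23), and 2.10-fold lower in cells of like long-gene share (2.06 to 2.14). HSPA1A, an inducible Hsp70, was at 100.3 and 38.5 CPM (2.61-fold lower, 2.52 to 2.70) and its near-identical copy HSPA1B at 19.1 and 9.24 CPM (2.07-fold lower), between which reads may be split. The Hsp40 co-chaperone DNAJA1 was at 238 and 140.5 CPM (1.70-fold lower) and the small chaperone HSPB1 at 197 and 130.4 (1.51-fold lower). The mitochondrial chaperone HSPD1 was level, at 1088 and 1084 CPM.

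The heat shock list, too, differed between the untreated libraries, by a median of -0.29 and -0.27 in the windows for 72 h untreated over 0 h. Against 72 h untreated the 6 h library had a list median of 0.0019, HSPA8 a log2 ratio of -0.11 and HSPB1 one of -2.18. HSPA1A was lowest at 6 h of all 5 libraries, with 136, 137 and 619.9 CPM in the later ones.

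The letters GAANNTTC, a pair of facing units of the heat shock element that HSF1 binds, were found in 7 of 17 promoters of the list (41.2%), against 6.87% of all promoters and 4.66% of those of genes compared. The letters are the same on both strands. The 7 genes were HSPA1A, HSPA8, HSPA1B, DNAJA1, HSPB1, CHORDC1 and DNAJB6, of which 6 were lower at 6 h (median log2 ratio -0.76). The 10 without them had a median of -0.17, with 8 lower. The 5 lowest members of the list all carried the letters, and their stretches are shown with matches in capitals. They are HSPA1A at chr6:31815407-31815474 (plus strand), HSPA1B at chr6:31827603-31827670 (plus), HSPA8 at chr11:123062149-123062386 (minus), DNAJA1 at chr9:33025045-33025292 (plus) and HSPB1 at chr7:76302461-76302528 (plus).
HSPA1A: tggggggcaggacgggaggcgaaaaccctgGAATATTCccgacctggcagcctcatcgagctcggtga
HSPA1B: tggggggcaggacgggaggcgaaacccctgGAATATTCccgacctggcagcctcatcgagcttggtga
HSPA8: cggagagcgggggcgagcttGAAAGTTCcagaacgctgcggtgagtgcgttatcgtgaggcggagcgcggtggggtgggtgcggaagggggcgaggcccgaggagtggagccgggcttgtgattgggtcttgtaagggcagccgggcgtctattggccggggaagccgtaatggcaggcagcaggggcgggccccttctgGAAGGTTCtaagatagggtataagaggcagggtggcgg
DNAJA1: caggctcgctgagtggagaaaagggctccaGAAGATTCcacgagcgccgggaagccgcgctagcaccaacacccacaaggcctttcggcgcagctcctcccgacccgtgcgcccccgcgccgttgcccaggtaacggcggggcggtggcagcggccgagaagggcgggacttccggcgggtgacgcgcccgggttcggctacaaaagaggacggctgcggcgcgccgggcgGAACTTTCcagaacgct
HSPB1: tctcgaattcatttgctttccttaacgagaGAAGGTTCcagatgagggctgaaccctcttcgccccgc

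HSPA8 and DNAJA1 had 2 matches each in the promoter window and the others 1. HSPA1A and HSPA1B share the same 8 matched bases, 106 and 105 bases before their starts.

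Genes of epidermal growth factor signalling were higher at 6 h. Of 12 EGFR ligands and ERBB receptors on the list 5 were compared, HBEGF only through its 6 h level, and these 5 were higher, with a median log2 ratio of 0.83 (0.32 and 0.40 in the windows). Without a minimum level the median was 0.56. EGFR itself (ENSG00000146648, chr7:55019021-55211628, plus strand, 192608 bp long) was at 2477 CPM at 0 h, 4397 at 6 h, 2569.9 at 72 h untreated, 2391 at 72 h with inhibitor and 1428 in recovery. The 6 h library stood apart from the other 4, 1.78-fold above 0 h (1.77 to 1.78), and in cells of like long-gene share the levels were 2926 and 3642 CPM (1.24-fold, 1.23 to 1.25). EGFR is itself a gene of the longest decile, so its own counts helped to choose those cells. In cells of like MALAT1 level its log2 ratio was 0.40, against 0.83 in all cells. The ligand HBEGF, a shorter gene, had 2.75 and 12.3 CPM (4.45-fold, 3.94 to 5.05) and kept a log2 ratio of 1.76 and 1.89 in the windows. The ligand AREG was at 38.3 and 77.4 CPM (2.02-fold) and was highest at 6 h, with 27.3, 12.5 and 25 CPM later.

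Feedback genes of the MAP kinase pathway were mixed. Of 18 compared 14 were higher and 4 lower (median 0.25, and 0.021 and 0.037 in the windows). ERRFI1, an inhibitor of EGFR, was at 42.3 and 116 CPM (2.75-fold) and FOSL1, an AP-1 subunit, at 53.0 and 137 CPM (2.58-fold), and these kept log2 ratios of 0.97 and 1.04 in the first window. The phosphatase DUSP2 was lower, at 13.5 and 7.15 CPM (1.89-fold), and reached the minimum only at 0 h. Immediate early genes, which respond within minutes to growth factors and handling, were evenly divided, with 8 of 16 higher and 8 lower (median -0.0084, and -0.15 and -0.18 in the windows). EGR1 was at 66.6 and 45.6 CPM (1.46-fold lower), JUNB at 184 and 131 (1.40-fold lower) and FOS at 101 and 80.5 (1.25-fold lower).

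Of 19 genes compared on the YAP-TEAD list, 18 were higher and 1 lower, and 1 reached the minimum only at 6 h. The list holds targets that read out cell shape and contact, and also the pathway's own factors YAP1, WWTR1 and TEAD1. Its median log2 ratio was 0.68 in all cells, and 0.22 and 0.34 in the windows. Its median span was 61100 bp, against 37404 bp for all protein-coding genes compared. ANKRD1 was at 8.58 and 23.5 CPM (2.74-fold), the coagulation receptor F3 at 65.1 and 179 (2.76-fold) and GADD45A, a stress and growth arrest gene, at 104 and 273 CPM (2.63-fold). CCN2, the best known target of the list, was the lower one, at 45.3 and 34.0 CPM (1.33-fold). Among 15 integrin and laminin-332 genes (2 of them above the minimum only at 6 h) 13 were higher (median 0.48, and 0.12 and 0.15 in the windows). ITGA2, a collagen receptor chain, was at 14.2 and 39.7 CPM (2.79-fold).

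Keratins of the basal list were mostly, but not all, higher. KRT17 was at 442 CPM at 0 h and 1013 at 6 h, against 375, 440 and 360.2 CPM at 72 h untreated, 72 h with inhibitor and recovery. It was 2.29-fold higher (2.27 to 2.31), and its log2 ratio was 1.33 and 1.35 within the windows, above the 1.20 in all cells. KRT16 was at 55.3 and 129 CPM (2.34-fold) and KRT6A at 52.2 and 83.9 (1.61-fold), while KRT5 was near level at 331 and 363 CPM (1.10-fold). These keratins are close paralogs, between which reads may be split. The basal list also holds EGFR and genes of integrins and laminin-332. Of 17 genes compared on it (1 of them above the minimum only at 6 h) 14 were higher (median 0.38, and 0.26 and 0.22 in the windows). The 3 lower ones were VIM, KRT15 and S100A2.

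Secreted antimicrobial and late epithelial genes lay on the other side, with 14 of 17 lower and a median of -0.32. Of the 17, 2 reached the minimum only at 0 h. The monocyte-type co-receptor CD14 was at 25.5 CPM at 0 h and 10.2 at 6 h (2.51-fold lower, 2.34 to 2.69), with 92.3 CPM at 72 h untreated. The immune markers PTPRC and TYROBP were at 0.420 CPM or less in both libraries. LY6D was at 31.5 and 12.4 CPM (2.53-fold lower) and AGR2, a secretory pathway isomerase, at 15.8 and 7.85 (2.01-fold lower). S100A7 was at 1511 and 1016 CPM and S100A9 at 6076 and 4871 CPM (1.49-fold and 1.25-fold lower). The list's median was -0.097 and -0.066 in the windows. The 3 higher members were S100P, at 95.4 and 157 CPM (1.65-fold), and the kallikreins KLK10 and KLK5 (1.04-fold and 1.02-fold). SPDEF, a luminal and secretory transcription factor, was at 77.6 and 39.5 CPM (1.96-fold lower), with a log2 ratio of -0.84 in the first window.

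TNFSF10 (ENSG00000121858, chr3:172505508-172523507, minus strand) encodes the death ligand TRAIL and had the lowest ratio of the genes ranked. It was at 47.0 CPM at 0 h, 14.2 at 6 h, 185 at 72 h untreated, 192 at 72 h with inhibitor and 164 in recovery. The 6 h library was the lowest of the 5, 3.31-fold below 0 h (3.13 to 3.51) and 3.30-fold below it in cells of like long-gene share. The gene for its receptor, TNFRSF10B (DR5), a CHOP target, was on the other side at 13.0 and 28.7 CPM (2.21-fold higher, 2.08 to 2.36), near its 29.8 CPM at 72 h untreated. CDKN1A, the p21 inhibitor of the cell cycle, was at 8.10 and 14.2 CPM (1.76-fold higher). Of 17 arrest and apoptosis genes (3 of them above the minimum only at 6 h) 14 were higher and 3 lower (median 0.36, and 0.17 and 0.31 in the windows).

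Targets of NRF2, the factor for oxidative defence, were divided, with 15 of 27 higher, 12 lower and a median of 0.065, below that of all genes (0.068 and 0.13 in the windows). Of the 27, 2 reached the minimum only at 6 h. The median turned to the other sign under median-of-ratios and TMM scaling. GCLC, which limits glutathione synthesis, was at 73.6 and 217 CPM (2.95-fold, 2.87 to 3.02), with 105, 125 and 103 CPM in the later libraries. TXNRD1, thioredoxin reductase, was at 279 and 508 CPM (1.82-fold). PRDX1 and MGST1, abundant detoxifying enzymes, were 1.17-fold and 1.20-fold lower.

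Of 28 hypoxia and glycolysis genes compared (2 of them above the minimum only at 6 h) 19 were higher and 9 lower (median 0.24, and 0.10 and 0.12 in the windows). NDRG1, a hypoxia and stress gene, was at 5.43 and 20.8 CPM (3.84-fold, 3.51 to 4.20), with 4.08 CPM at 72 h untreated and 36.8 at 72 h with inhibitor. HK2, a hexokinase, was at 10.5 and 23.7 CPM (2.26-fold) and VEGFA at 30.6 and 58.9 (1.93-fold). LDHA was at 1155 and 971 CPM, and ENO1 and PKM at 791 and 657 CPM and 640.4 and 533 CPM, all 3 about 1.2-fold lower.

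**Figure D4:**
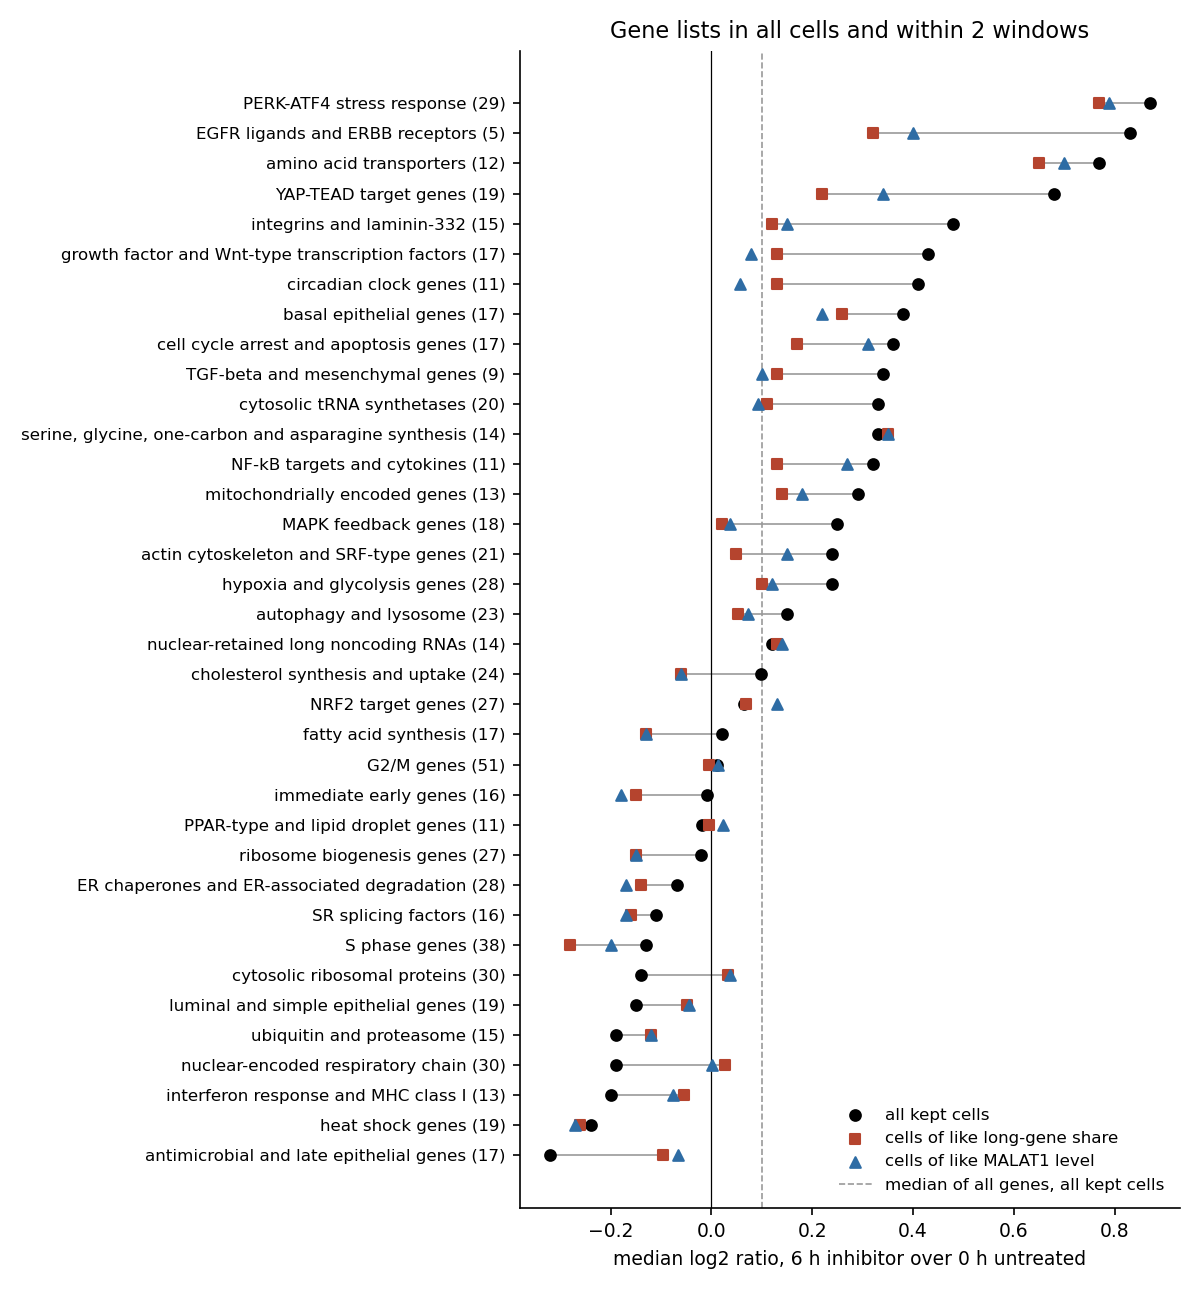
Median log2 ratio of each gene list at 6 h over 0 h (number of genes compared in brackets), in all kept cells (black circles) and in cells of like long-gene share (red squares) or like MALAT1 level (blue triangles); the dashed line is the median of all genes in all cells. The PERK-ATF4 list lies between 0.77 and 0.87 in all 3 sets of cells, while the EGFR, YAP-TEAD, integrin and clock lists come nearer to 0 in the windows.

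Ribosomal and respiratory genes, which are short (median spans 6013 and 8312 bp), were lower at 6 h, with medians near 0 in the windows. Of 30 cytosolic ribosomal protein genes 28 were lower (median -0.14, and 0.032 and 0.036 in the windows), and of 30 nuclear-encoded respiratory chain genes 29 were lower (median -0.19, and 0.026 and 0.0013). Of 15 ubiquitin and proteasome genes 14 were lower (median -0.19, and -0.12 in both windows). Mitochondrially encoded genes were 12 of 13 higher (median 0.29, and 0.14 and 0.18 in the windows), led by MT-ND6 at 52.8 and 93.9 CPM (1.78-fold), while MT-CO2 was level at 17988 and 17440.3 CPM.

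S phase genes were 29 of 38 lower at 6 h, with a median of -0.13 and of -0.28 and -0.20 in the windows. Of the 38, 1 reached the minimum only at 0 h. The sign depended on the reference library. At 72 h untreated 37 of 38 were lower than at 0 h (median -0.67). Against 72 h untreated, 35 of 37 were higher at 6 h and 2 lower (median 0.54). CCNE1, the cyclin of S phase entry, was at 31.4 and 19.0 CPM (1.66-fold lower), FEN1, a replication nuclease, at 91.5 and 64.3 (1.42-fold lower) and the histone gene HIST1H1A at 171 and 70.7 (2.42-fold lower). G2/M genes were 27 higher and 24 lower, with a median of 0.011 (-0.0043 and 0.013 in the windows). Cells were classed by the 75th percentile of the 0 h library for each list, with the G2/M class assigned first. Above the G2/M limit (G2/M-high) were 24.9% of 0 h cells and 24.3% of 6 h cells. Above the S phase limit but not the G2/M limit (S-high) were 19.5% and 16.7%. There were 476 cells at 0 h and 347 at 6 h within 1 UMI of a class limit. The stress list was higher at 6 h within each class. Its median log2 ratio was 0.84 among S-high cells, 0.78 among G2/M-high cells and 0.94 among cells low in both. From cell to cell, its UMIs had a Spearman's rho with the S phase list of -0.11 at 0 h and -0.070 at 6 h. With the G2/M list rho was 0.053 and -0.021.

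Further genes with high ratios were long. SAMD4A, an RNA-binding repressor (226219 bp), was at 11.9 and 47.2 CPM (3.98-fold) and at 11.9 CPM at 72 h untreated, and the potassium channel gene KCNQ5 (577060 bp) was at 15.3 and 49.3 CPM (3.23-fold). Their log2 ratios in cells of like long-gene share were 1.17 and 0.91, against 1.99 and 1.69 in all cells. The noncoding HIF1A-AS3 was at 24.2 and 102 CPM (4.20-fold) and 24.8 CPM at 72 h untreated, and its reads cannot be told from those of overlapping genes without the counting strand, which is not given in the sources used here. HDAC9, a histone deacetylase gene, was at 20.6 and 59.6 CPM (2.90-fold) and ETS1, a growth factor-responsive factor, at 24.6 and 59.1 (2.41-fold). The clock gene NPAS2 was at 23.1 and 50.6 CPM (2.20-fold), and clock genes as a list had a median of 0.41 in all cells and of 0.13 and 0.056 in the windows. Of the 11 clock genes compared, 2 reached the minimum only at 6 h. ID3, a BMP-responsive inhibitor of differentiation factors, was at 164 and 90.2 CPM (1.81-fold lower).

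From cell to cell, the stress list was displaced as a whole. With cells thinned to 5000 UMIs, the median cell held 6 UMIs of the PERK-ATF4 list at 0 h and 10 at 6 h. A level above the 90th percentile of 0 h cells (more than 10 UMIs) was seen in 9.89% of cells at 0 h and in 41.4% at 6 h (39.6 to 43.2%), and in 51.3% at 72 h untreated. The variance divided by the mean over cells was 1.80 at 0 h and 1.74 at 6 h. A DDIT3 UMI was seen in 8.05% of thinned cells at 0 h and 28.2% at 6 h, a CHAC1 UMI in 1.89% and 9.21%, an STC2 UMI in 3.78% and 18.1%, and an SLC7A5 UMI in 19.9% and 43.2%. These shares follow the CPM, and the line offers no cell type that should lack the genes as a background for free RNA.

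The heat shock list had a median of 42 UMIs per thinned cell at 0 h and 33 at 6 h. Cells under the 10th percentile of 0 h made up 8.46% at 0 h, 27.2% at 6 h (25.6 to 28.8%) and 33.9% at 72 h untreated. An HSPA8 UMI was found in 96.9% and 79.9% of cells, and an HSPA1A UMI in 37.1% and 15.7%. The basal list had medians of 19 and 32 UMIs, and 41.1% of 6 h cells exceeded the 90th percentile of 0 h, against 3.57% at 72 h untreated. EGFR is on this list and made up most of its UMIs. Per thinned cell, EGFR had a mean of 12.2 of the list's 20.9 UMIs at 0 h and 21.6 of 34.3 at 6 h. KRT17 had means of 2.20 and 5.08 UMIs. A KRT17 UMI was seen in 65.4% and 87.2% of cells.

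**Figure D5:**
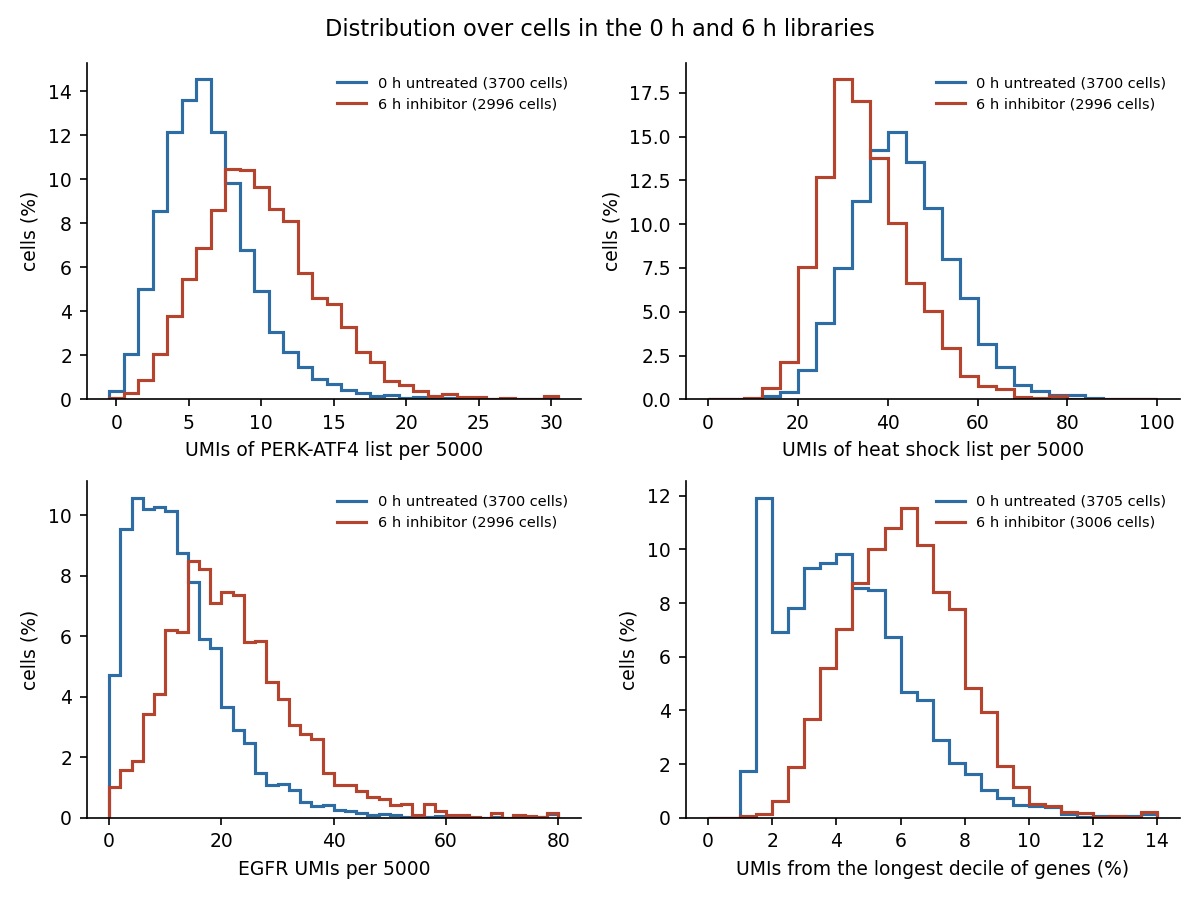
Share of cells (percent) by UMIs of the PERK-ATF4 list, of the heat shock list and of EGFR among 5000 UMIs per cell, and by percent of UMIs from the longest decile of genes, at 0 h (blue) and 6 h (red). The PERK-ATF4 curve shifts as a whole from a median of 6 to 10 UMIs, and the 0 h curve of the long-gene share has a separate peak below 2%.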

How the data were processed

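Whole cells were profiled with the 10x Genomics Single Cell 3' v3.1 kit, per the labels' protocols. The authors deposited 1 matrix of raw UMI counts per gene and barcode for each of 5 libraries, made with Cell Ranger 7.1.0 on GRCh38, per the submitters' processing notes. Whether introns and strand were counted, and on which annotation, is not given in the sources used here. Positions, spans and types of genes came from GENCODE 29 and promoters from RefSeq tables. Barcodes with at least 1000 genes and at most 20% mitochondrial UMIs were kept, no doublets were removed, and counts were summed per library and divided by the library total (CPM). Genes needed 10 CPM in either library, and a count of 0 stood as 3 UMIs. Intervals are exact binomial (Clopper-Pearson) at 95% and cover counting error only, since 1 library stands for each condition. Cell-level values used cells thinned to 5000 UMIs, which left out 5 cells at 0 h and 10 at 6 h.

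Genes named were the 15 highest and 15 lowest ratios of at least 20 CPM, up to 4 high and 2 low members of each list (with further members chosen after their values were seen), ACACA, ACACB, FASN, HSPA5, DDIT3, ATF4, XBP1, EGFR, MALAT1 and NEAT1. The members of the comparison, the gene lists and the alternatives were chosen with earlier results of these data known. Alternatives were other cell filters, scalings (median of ratios, TMM), weights, depths, minimum levels, cell cycle class, reference library and gene span. The calculations were tested on simulated data. Software was Python 3.11.15 with numpy 2.4.6, pandas 2.3.3, scipy 1.17.1 and matplotlib 3.10.9, and R 4.3.3 with edgeR 4.0.16 for TMM factors.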

Additional observations from a re-analysis of the deposited data

How the results depend on the processing

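Each condition was 1 library, so no spread between cultures could be measured, and time in culture, handling and compound cannot be told apart. No paired analysis was possible because each group held a single library and no result came from a test. Counts of genes past a fold were recomputed under 14 alternatives and under the 2 windows of like cells, which were chosen after seeing the data. The 181 genes more than 2-fold higher became 120 under median-of-ratios scaling, 110 under TMM, 3574 with no minimum level, 70 with a minimum of 50 CPM, 92 when centred on deciles of gene span, 45 in cells of like long-gene share and 52 in cells of like MALAT1 level. The 12 more than 2-fold lower became 21 under TMM, 2064 with no minimum, 3 at 50 CPM, 381 with 72 h untreated as reference, and 26 and 25 in the windows. The 1000 more than 1.5-fold higher became 585 under TMM, 6713 with no minimum, 355 at 50 CPM, 426 when centred on span, and 199 and 223 in the windows. The 80 more than 1.5-fold lower became 145 under median of ratios, 187 under TMM, 3426 with no minimum, 20 at 50 CPM, 994 against 72 h untreated, 127 when centred on span, and 200 and 170 in the windows. The minimum of 50 CPM left 3566 genes and no minimum 28799.

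Scaling moved the median of all genes from 0.10 to 0.00075 (median of ratios) and -0.032 (TMM). Of the genes past 2-fold, 93.8% were higher as reported, 84.0% under TMM, 63.4% and 67.5% in the windows and 32.6% against 72 h untreated. Of the 32 list medians that all 16 settings could give, 16 kept their sign in every one, PERK-ATF4, amino acid transporters, YAP-TEAD and basal genes among them. The other 4 lists (EGFR, clock, NF-kB and TGF-beta) had 15 settings and kept theirs in those. Without the 72 h reference the PERK-ATF4 median ran from 0.74 to 0.95 and the heat shock median from -0.37 to -0.18. With 72 h untreated in place of 0 h, these genes past 1.5-fold changed sign (log2 ratio): ALDH1L2 -0.34, CARS -0.11, DDIT4 -0.29, DMGDH -0.43, EIF2AK3 -0.62, HERPUD1 -0.55, MALAT1 -0.25, NEAT1 -0.57, TNFRSF10B -0.054 and XBP1 -0.58 became lower, and CCNE1 0.37, FAM111B 0.81, FOXI1 0.81, HIST1H3D 0.14 and TOE1 0.35 became higher. The cause of these changes was not tested.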
